A study of Mus musculus with 10 samples.

Results

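Broad H3K27me3 domains were defined as CUT&RUN peaks with a width of at least 5 kb in control mouse embryonic stem cells. They were selected on peak width alone, and 1785 of the 66242 H3K27me3 CUT&RUN peaks (2.69%) met the rule. The cells were of the E14 line and carried an auxin-degradable NPM1, a nucleolar protein that chaperones histones. The medium held LIF and 2 inhibitors, PD0325901 against MEK at 1 µM and CHIR99021 against GSK3 at 3 µM. Per the series' design text, cells were arrested in G1 and harvested after release, with or without auxin, the compound that triggers destruction of a degron-tagged protein. The CUT&RUN peaks came from 1 control sample at 12 h, and the ChIP-seq peaks set beside them from 1 sample at 6 h without auxin. RNA came from 2 libraries without auxin and 2 with auxin at 12 h. All samples share the degradable NPM1 genotype and the inhibitor culture. The labels do not say how many clones the line represents, nor whether the 2 libraries of a group were separate cultures, so the spread behind a p-value is that of these libraries and may be technical alone. The auxin, auxin with PRC2 inhibitor and IgG CUT&RUN samples and the ChIP input were not analysed here, and the mark itself was not compared between conditions.

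H3K27me3, trimethylation of lysine 27 of histone H3, is written by Polycomb repressive complex 2 (PRC2), whose catalytic subunit is Ezh2 or Ezh1. PRC1 binds the mark through chromobox proteins, and Eed within PRC2 also binds it, which lets the mark spread along chromatin. In embryonic stem cells the mark is known for covering silent developmental genes, among them the Hox clusters, and culture with MEK and GSK3 inhibitors is known to alter where it lies.

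The sequence at gene starts inside domains was taken from RefSeq promoter windows (build GRCm38.p6, 250 bases before to 50 after each start). Of 32851 windows, 404 lay entirely inside a domain. CG dinucleotides, which read the same on both strands, are shown in capitals in 5 windows of genes described here, because PRC2 targets in stem cells are known for CpG-rich promoters and these 5 differ widely in their number. The windows run from 2 CG dinucleotides in 4930588K23Rik (chr16:18606412-18606711, plus strand), an uncharacterised transcript with a RefSeq start in the domain ranked 7 by width, to 56 in Epha8 (chr4:136956767-136957066, minus strand), an ephrin receptor. Between them lie Tlx1 (chr19:45150465-45150764, plus strand), a homeobox factor, with 16, Gata5 (chr2:180334630-180334929, minus strand), a zinc finger factor of heart and endoderm, with 26, and Chrna4 (chr2:181039128-181039427, minus strand), a nicotinic acetylcholine receptor subunit, with 33.
4930588K23Rik: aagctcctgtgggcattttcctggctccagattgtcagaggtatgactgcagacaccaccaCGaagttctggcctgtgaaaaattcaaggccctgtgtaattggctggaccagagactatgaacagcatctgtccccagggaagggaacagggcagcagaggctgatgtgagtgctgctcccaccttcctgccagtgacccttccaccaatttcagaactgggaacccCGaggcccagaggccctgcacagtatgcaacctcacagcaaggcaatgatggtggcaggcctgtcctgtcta
Tlx1: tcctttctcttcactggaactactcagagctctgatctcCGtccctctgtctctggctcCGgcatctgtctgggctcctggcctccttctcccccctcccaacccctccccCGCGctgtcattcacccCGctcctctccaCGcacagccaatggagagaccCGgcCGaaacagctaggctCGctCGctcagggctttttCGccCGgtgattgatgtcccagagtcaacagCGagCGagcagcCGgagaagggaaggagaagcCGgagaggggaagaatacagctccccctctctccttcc
Gata5: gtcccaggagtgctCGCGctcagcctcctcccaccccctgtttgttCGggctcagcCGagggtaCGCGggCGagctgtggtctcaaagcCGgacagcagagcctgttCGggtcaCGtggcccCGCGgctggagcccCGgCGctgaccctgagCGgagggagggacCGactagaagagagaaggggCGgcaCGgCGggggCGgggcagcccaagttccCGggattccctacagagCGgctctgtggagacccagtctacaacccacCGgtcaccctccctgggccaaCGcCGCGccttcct
Chrna4: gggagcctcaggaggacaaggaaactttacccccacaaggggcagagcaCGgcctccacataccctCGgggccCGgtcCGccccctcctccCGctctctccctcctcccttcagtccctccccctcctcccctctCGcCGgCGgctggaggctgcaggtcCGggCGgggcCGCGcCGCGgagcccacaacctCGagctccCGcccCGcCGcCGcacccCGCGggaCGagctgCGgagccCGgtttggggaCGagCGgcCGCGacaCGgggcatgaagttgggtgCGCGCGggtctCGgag
Epha8: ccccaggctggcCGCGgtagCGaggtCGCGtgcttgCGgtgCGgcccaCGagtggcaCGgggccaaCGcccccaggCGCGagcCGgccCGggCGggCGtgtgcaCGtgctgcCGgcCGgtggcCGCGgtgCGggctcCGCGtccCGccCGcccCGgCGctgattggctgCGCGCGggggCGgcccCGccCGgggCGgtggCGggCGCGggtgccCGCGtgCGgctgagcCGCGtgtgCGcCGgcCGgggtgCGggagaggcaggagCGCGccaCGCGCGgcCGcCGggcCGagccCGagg

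Most promoters in domains were not CpG-rich. The ratio of observed to expected CG dinucleotides was 0.0871 for 4930588K23Rik, 0.593 for Tlx1, 0.714 for Gata5, 0.808 for Chrna4 and 1.06 for Epha8. A window was counted as CpG-rich at a ratio of at least 0.6 with a GC content of at least 55%. By that measure 89 of the 404 windows inside domains were CpG-rich, 22.0% (95% Wilson interval 18.3 to 26.3%), against 30.3% of all 32851 windows and 31.6% of the 29943 windows that touch no CUT&RUN peak. Among protein-coding genes the share was 29.1% of 265 windows inside domains (23.9 to 34.8%) and 42.6% of 19547 windows without a peak (41.9 to 43.3%). Inside narrower CUT&RUN peaks it was 12.7% of 220 windows under 1 kb, 16.7% of 485 at 1 to 2 kb and 18.0% of 840 at 2 to 5 kb, with overlapping intervals between neighbouring width classes. Of the 404 windows, 157 touched a ChIP-seq peak, and 21.0% of these were CpG-rich against 22.7% of the other 247. The intervals cover counting of windows only.

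Domains also held microRNA genes. Of 1005 RefSeq miRNA hairpins, 18 overlapped a domain (1.79%) and 70 overlapped any CUT&RUN peak. The mature sequences of 4 well-studied members are shown, with the seed (bases 2 to 8) in capitals, because their roles in development are well known. miR-9 acts in neural progenitors, miR-10a sits in the HoxB cluster, miR-203 acts in epidermal differentiation and miR-218 is carried by an intron of a Slit gene and acts in motor neurons. The 4 seeds differ from each other. MicroRNAs were not measured in these RNA libraries, which were selected for poly(A).
miR-9-5p: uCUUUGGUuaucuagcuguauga
miR-10a-5p: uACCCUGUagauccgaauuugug
miR-203-3p: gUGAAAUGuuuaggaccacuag
miR-218-5p: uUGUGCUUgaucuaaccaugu

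The miR-9 hairpin Mir9-1 lay in a domain of 11054 bp, 42.7% of it under ChIP-seq peaks. Mir10a lay in a domain of 5005 bp that also covers the 5′ end of Hoxb4 (58.6% under ChIP-seq peaks). Mir203 lay in a domain of 8388 bp with 55.2% under ChIP-seq peaks, and Mir218-2 in a domain of 5453 bp within Slit3 that held no ChIP-seq peak.

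The widest domain measured 26215 bp and covered 75.6% of Dchs1, a large protocadherin of the planar cell polarity pathway (chr7:105760723-105786937, mm10). Next in width came the domains over the adenosine receptor gene Adora2a (22599 bp), over Lrrc32, which encodes a carrier of latent TGF-beta (21102 bp), over Syt7, a calcium sensor of exocytosis (20600 bp), and over the Wnt ligand gene Wnt9b (19528 bp). Then followed a domain that runs from the 3′ end of Hoxb4 over the 5′ end of Hoxb3 (chr11:96320654-96339709, 19056 bp), one over the platelet receptor gene Gp1bb and the septin gene Sept5 (19040 bp), and those over Syndig1l (18198 bp), the endothelial cadherin gene Cdh5 (18092 bp) and the carboxypeptidase gene Cpz (17897 bp). These widths come from the measurement that selected the domains and are a description.

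Over all 1785 domains the median width was 6296 bp, with quartiles of 5559 and 7774 bp. The domains summed to 12.6 Mb, 14.6% of the length under CUT&RUN peaks. Just inside the width rule lay 3 peaks of 5005 bp, and just outside lay 2 peaks of 4998 bp and 1 of 4997 bp. Those 3 outer peaks had 66.7%, 56.2% and 18.5% of their length under ChIP-seq peaks, and the 3 inner ones 0%, 0% and 58.6%. The fold enrichment that the authors' peak caller gave for domains ran from 1.95 to 4.74, with a median of 3.37 against 2.97 for peaks under 1 kb. The median −log10 q was 2.03 in domains and 1.30 in peaks under 1 kb.

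Domains lay on every autosome. Chromosome 2 had 179, chromosome 11 had 162 and chromosome 4 had 150, while chromosome 14 had 28. As a share of the CUT&RUN peaks on a chromosome they ran from 1.62% on chromosome 13 to 3.38% on chromosome 11. On chromosome X none of 236 peaks reached 5 kb, which allows a share of up to 1.27%, and the widest measured 4728 bp. That limit covers counting error only. Domains lay near each other: 886 (49.6%) had another domain within 50 kb, and the median distance to the nearest was 51.8 kb. The run with the most domains under that spacing held 13 over 194 kb (chr1:135898210-136092597) across Cacna1s, a calcium channel of skeletal muscle, Igfn1 and Pkp1. A run of 9 over 150 kb lay at Cbfa2t3 on chromosome 8. A run of 8 at Cd82 on chromosome 2 covered more length, 221 kb. Other runs of 8 domains lay over Rbfox3, a splicing factor of neurons, and over the 3′ part of Kcnq1, a potassium channel gene in an imprinted region. A run of 7 lay over the calcium channel gene Cacna1h and the somatostatin receptor gene Sstr5.

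ChIP-seq peaks were found in most domains, but covered a minor part of their length. At least 1 ChIP-seq peak overlapped 1524 of the 1785 domains, 85.4% (95% Wilson interval 83.7 to 86.9%). The share was 51.2% of 9995 peaks of 2 to 5 kb (50.2 to 52.2%), 24.6% of those of 1 to 2 kb and 10.4% of those under 1 kb. A wide peak has more room for an overlap, so the covered length and the central base were compared as well. ChIP-seq peaks covered 25.4% of the domains' length, against 14.9% at 2 to 5 kb, 8.71% at 1 to 2 kb and 5.81% under 1 kb. The central base lay under a ChIP-seq peak in 24.6% of domains (22.7 to 26.7%) and in 15.2% of peaks of 2 to 5 kb (14.5 to 15.9%). Each of these measures was higher in domains than in the narrower peaks, by more than the counting intervals where there is one. There was 1 sample per assay, at different times after release, so no spread between replicates stands behind these shares. ChIP-seq peaks that the authors' caller scored at −log10 q of 2 or more overlapped 61.2% of domains and covered 14.4% of their length.

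**Figure D1:**
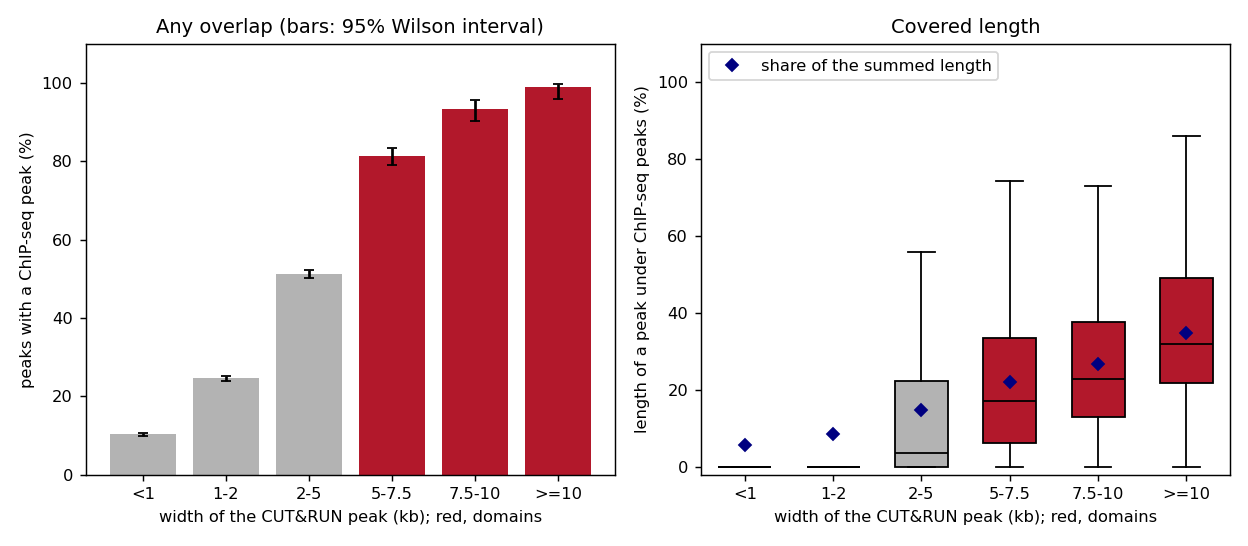
Left, the share of CUT&RUN peaks that a ChIP-seq peak overlaps (%), by peak width (kb), with 95% Wilson intervals; right, the percent of each peak's length under ChIP-seq peaks (line, median; box, quartiles; whiskers to 1.5 box lengths; diamonds, share of the summed length). The overlap reaches 81.4% at 5 to 7.5 kb and 98.9% at 10 kb or more, and the summed length covered goes from 5.81% under 1 kb to 34.8% at 10 kb or more.

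Within the domains the cover went on rising with width. It was 22.1% of the length of 1274 domains of 5 to 7.5 kb, 26.9% of 336 domains of 7.5 to 10 kb and 34.8% of 175 domains of 10 kb or more, of which 173 held a ChIP-seq peak. The number of ChIP-seq peaks per 10 kb was 3.40, 3.89 and 4.43 in these classes. A domain held a median of 2 ChIP-seq peaks and at most 16, the latter in Syt7. In all, 206 domains had 50% or more of their length under ChIP-seq peaks and 261 held none. From the other side, 4666 ChIP-seq peaks (11.3%) overlapped a domain.

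The 50 widest domains ranged widely in this cover. The highest was 86.0% in a domain of 13149 bp inside Nfix, a nuclear factor I gene, where 4 ChIP-seq peaks were found. Next came the Hoxb4 to Hoxb3 domain with 65.8%, the domain over the homeobox gene Hmx1 with 64.4%, that of Cdh5 with 62.9% and that of the Nogo receptor gene Rtn4r with 62.8%. The lowest was 5.19%, in a domain of 14098 bp inside Prkag2, a subunit of AMP-activated kinase. It was followed by 10.4% over 9430024E24Rik, 10.5% in a domain outside genes on chromosome 4, and 14.5% in each of the domains inside Ltbp2 and Sdk2. The widest domain of all, over Dchs1, had 30.2% of its length under 11 ChIP-seq peaks.

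**Figure D2:**
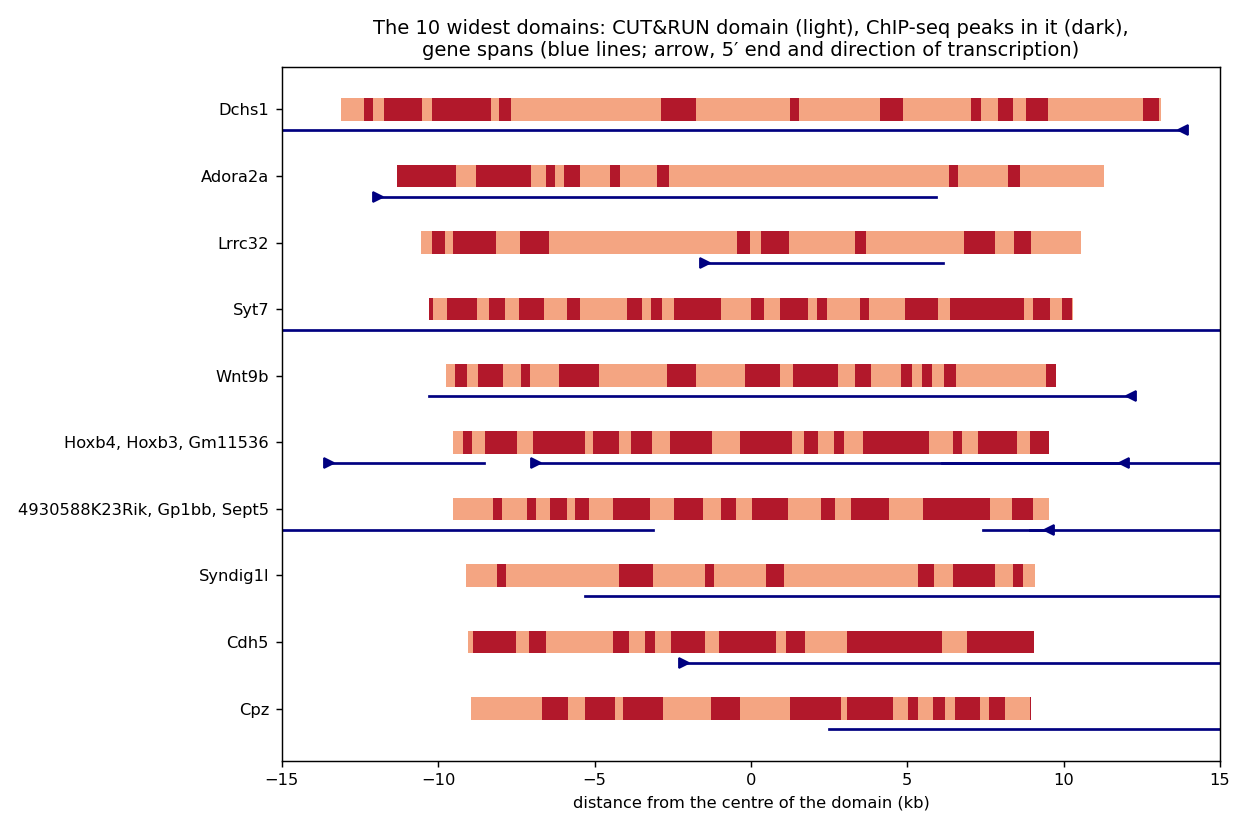
The 10 widest domains drawn to scale around their centres (distance in kb), with the parts under ChIP-seq peaks in dark red and gene spans as blue lines with an arrow at the 5′ end. ChIP-seq peaks lie scattered along each domain and cover from 24.6% (Syndig1l) to 65.8% (the Hoxb4 to Hoxb3 domain).

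By the gene spans of the count table, the domains lay mostly in genes, and there mostly in gene bodies. A gene span was overlapped by 1286 domains, 72.0% (95% Wilson interval 69.9 to 74.1%), and 499 lay outside genes. The share over genes was 57.5% (56.5 to 58.4%) for peaks of 2 to 5 kb and 47.2% (46.7 to 47.7%) for those under 1 kb. By length, 8.97% of domain sequence was exon, 54.4% intron and 36.6% intergenic, and exon made up 4.74% of peaks under 1 kb. The 1286 domains overlapped 1122 genes of the count table in 1496 domain and gene pairs. In 902 pairs (60.3%) the domain lay inside the gene, in 288 (19.3%) over its 5′ end, in 212 (14.2%) over its 3′ end, and in 94 (6.28%) it spanned the gene. The 902 inner domains were spread along the gene: from the 5′ end, 5 successive parts of equal length held 18.8%, 22.9%, 22.4%, 21.2% and 14.6% of them.

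Of the 1122 genes, 939 (83.7%) were protein coding in RefSeq, 79 were lncRNA genes and 79 names were not matched. A single domain lay on 904 genes and 2 or more on 218. Rbfox3 had 14 domains and the GABA receptor gene Gabbr2 had 7. Cdh23, Kcnq1, Atp2b2, Shank2 and the GABA transporter gene Slc6a11 had 6 each. Gm20388, which the table draws across chr8:119910841-124345722 over other genes, had 30. The domains of a gene covered a median of 22.9% of its span and 90% or more in 117 genes. Domain genes were longer than others, with a median span of 27.8 kb against 8.00 kb for the 32780 placed genes. A window of 1 kb on either side of the 5′ end met a domain in 455 of the 1122 genes. The other 667 counted as marked in the body only. The 5′ end here is the outermost exon end in the count table, and other starts of a gene can lie further in. The RefSeq window of Chrna4 shown above lies in a domain 3642 bp from that end. The body set thus holds some genes with a promoter in a domain.

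Many families of developmental and neuronal genes had a larger share of members under domains than genes at large. Of all placed genes 3.42% had a domain and 1.39% a domain at the 5′ end. Among placed protein-coding genes these shares were 4.5% and 1.67%. Domains lay on 8 of 38 Hox genes (21.1%), 25 of 129 other homeobox factors (19.4%), 6 of 41 Sox, Gata and T-box factors, 7 of 50 basic helix-loop-helix factors and 5 of 44 forkhead factors. At the 5′ end the Hox share was 15.8% and that of the other homeobox factors 8.53%. Wnt ligands, receptors and modulators had 9 of 58, FGF ligands and receptors 5 of 29, Hedgehog and Notch genes 4 of 18, and BMP and TGF-beta genes 5 of 63. Collagens had the highest share, 15 of 44 (34.1%), followed by voltage-gated ion channels with 35 of 123 (28.5%) and synaptic vesicle and adhesion genes with 15 of 59 (25.4%). Their 5′ end shares were 9.09%, 9.76% and 10.2%. Axon guidance genes had 13 of 71, cadherins 11 of 72, matrix glycoproteins 9 of 70, neurotransmitter receptors 12 of 108 and solute carriers 28 of 366. Krueppel-like, Gli and Zic factors had 2 of 39 (5.13%), near the share of protein-coding genes. No domain lay on the 11 PRC2 subunits, the 22 PRC1 subunits or the 79 cytosolic ribosomal protein genes. In lists of 11 and 22 genes, none cannot be told from a share of 4.5%. Of 22 pluripotency genes, Esrrb alone had domains. The lists also differed in gene length. The median span was 114 kb for collagens, 40.5 kb for the ion channels and 56.6 kb for axon guidance genes, against 3.59 kb for Hox genes and 3.23 kb for ribosomal proteins. The part of length in the shares was not tested.

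RNA was measured in 4 libraries with 13353446 to 16046290 assigned counts, and mitochondrial genes took 3.46 to 4.96% of them. The degron removes protein, so the Npm1 transcript does not check the labels: it stood at 1060 and 951 CPM (counts per 1000000 with TMM scaling) without auxin and 843 and 767 CPM with auxin. The 8 embryonic stem cell markers summed to 6120 and 5920 CPM without auxin and 5550 and 5420 CPM with it, none at 0. The 8 fibroblast markers summed to 9.55 and 11.7 CPM without auxin and 16.4 and 23.1 CPM with auxin. Of these, Pdgfrb carried 3.16 and 5.76 CPM without auxin and 9.0 and 15.2 CPM with it, and Postn and Lum had at most 1 count in a library. The 4 primitive endoderm markers summed to 9.70 and 9.56 CPM against 13.9 and 15.7 CPM with auxin, and the 4 neural progenitor markers to 36.4 and 34.8 CPM against 40.7 and 42.4 CPM. One marker of the neural list was at 0 in 1 library, and none of the endoderm list was. Within the neural list Nes went from 23.2 and 18.1 to 32.8 and 32.2 CPM with auxin. Sox1 went the other way, from 13.0 and 16.4 to 7.52 and 9.68 CPM, and Pax6 and Neurog2 had at most 8 counts in a library. Of the 8 stem cell markers 5 were called lower by edgeR and 1, Nanog, higher. Each stood at 165 CPM per kb of exon or more without auxin. Of all genes tested at 10 CPM per kb or more, 29.6% were called lower and 8.2% higher. The fibroblast, endoderm and neural sums were higher with auxin, as were more of the domain genes below than were lower, and their part in those changes was not tested. Esrrb, Nes and Col1a1, one each of the stem cell, neural and fibroblast lists, lie under domains themselves.

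Few genes under domains were well transcribed in control cells, and their median level was close to that of genes at large. As CPM per kb of exon it was 0.0461 (0.0378 and 0.0484 in the 2 libraries), against 0.048 for all placed genes and 0.0555 for those with no CUT&RUN peak. Without auxin 332 of 1122 domain genes (29.6%) had no read, fewer than the 43.7% of all placed genes. The sets parted in the upper part of the range and among protein-coding genes. The level was 1 or more in 115 domain genes (10.2%), against 18.2% of the 6671 genes with narrower peaks only and 39.5% of the 24987 genes with no CUT&RUN peak. Among protein-coding genes the medians were 0.0779 with a domain, 0.105 with narrower peaks only and 3.95 with no peak, while 19.3%, 23.8% and 25.2% had no read. The position of the domain, set by the 5′ end in the count table, went with the level. Genes with the domain at the 5′ end had a median of 0.0117 and 42.0% without a read, and genes with it in the body only a median of 0.0937 and 21.1% without a read. Where domains covered 50% or more of the gene, the median was 0.00857 and no gene of 276 reached a level of 10. In bulk RNA, fewer cells that use a gene and less RNA per cell cannot be told apart.

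**Figure D3:**
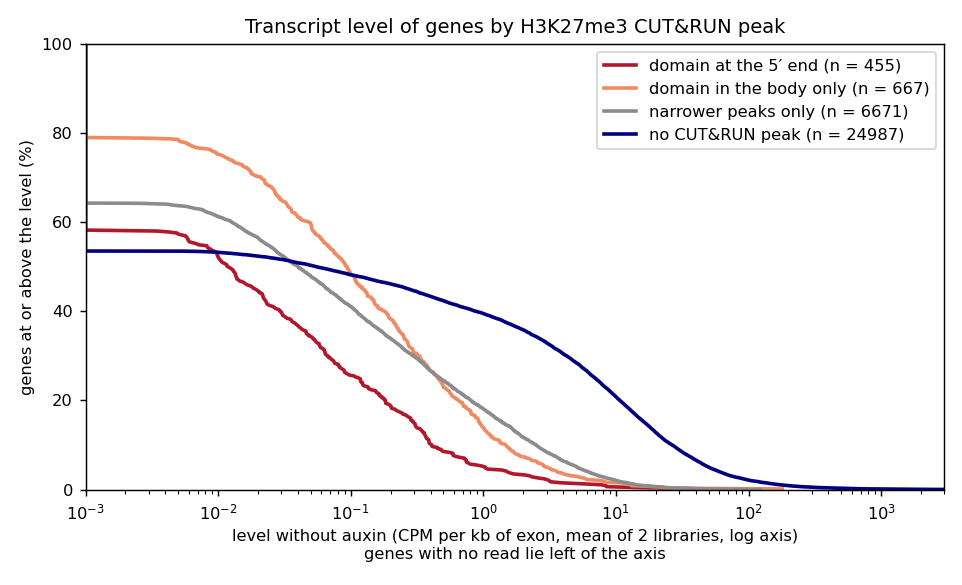
The percent of genes (y axis) at or above a level without auxin (x axis, CPM per kb of exon, log scale) for genes with a domain at the 5′ end, in the body only, with narrower peaks only and with no CUT&RUN peak. At a level of 1 the curves stand at 5.05%, 13.8%, 18.2% and 39.5%.

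Genes under the 10 widest domains had few reads in any library. Dchs1 stood at 1.19 and 1.15 CPM without auxin and 1.11 and 1.01 CPM with it (log2 fold change -0.15, adjusted p = 0.774). Syt7 had 2.11 and 2.17 CPM without auxin and 2.65 and 2.38 CPM with it, and Cpz 1.83 and 2.37 CPM against 2.51 and 2.44 CPM. Sept5 went from 0.983 and 0.61 to 1.11 and 1.54 CPM (0.75, adjusted p = 0.177). None of these 4 passed edgeR's test. The auxin libraries of Syt7, Cpz and Sept5 lay above their controls and those of Dchs1 below. Auxin libraries lay above in 27.9% of all domain genes and in 17.3% of all placed genes. Adora2a had 1 and 5 counts without auxin and 6 and 2 with it, and Lrrc32, Wnt9b, Cdh5 and Syndig1l had at most 3 counts in a library. Gm11536, 4930588K23Rik and Gp1bb had none. Of the 14 genes under these domains, only Dchs1, Syt7, Cpz, Sept5 and Hoxb4 had enough reads to be tested. Hoxb4 alone was called, higher, as were 19.0% of all tested domain genes.

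A few domain genes were well transcribed, and 12 of the 1122 (1.07%) reached a level of 10 per kb. Esrrb, an orphan nuclear receptor of the naive pluripotency network, stood far above the rest at 179 per kb (1110 and 1060 CPM). Its 2 domains, of 5907 and 5105 bp, lay inside the gene and had 0.102% and 7.97% of their length under ChIP-seq peaks. The next were the glycosyltransferase gene Galnt6 at 37.8 per kb, the farnesyltransferase subunit gene Fntb at 33.0, the phosphatase gene Ptp4a3 at 22.5 and the cargo receptor gene Lman1 at 22.3. Aim2, a sensor of cytosolic DNA, stood at 17.1, the diacylglycerol kinase gene Dgkz at 15.3 and Tsfm, a mitochondrial translation factor, at 13.1. The domains of the 7 genes after Esrrb were 5184 to 6745 bp wide, in the lower part of the range. That of Fntb lay 54110 bp from the 5′ end of Fntb and over the 5′ end of another gene, Rab15. Of these 8 genes Dgkz alone had a domain over its 5′ end. The domain of Galnt6 lay 558 bp from the 5′ end, within the window of 1 kb on either side.

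With auxin, more domain genes rose than fell. Of the 416 domain genes with enough reads to be tested (37.1% of the 1122), 79 rose and 17 fell by edgeR's quasi-likelihood test at an adjusted p under 0.05, that is 19.0% and 4.09%. Over all 13522 genes tested, 1759 rose (13.0%) and 1964 fell (14.5%), and the median log2 fold change was 0.01 against 0.26 in domain genes. DESeq2 called 28 rises and 8 falls among domain genes. The counts were 46 rises and 20 falls without the second auxin library and 48 and 10 without the first control library. A gene silent without auxin passes the read filter only if its reads appear with auxin, so these shares are not those of all domain genes. Over all 1122, filter or not, both auxin libraries stood above both control libraries in 313 (27.9%) and below both in 103 (9.18%), against 17.3% and 14.8% of the 32780 placed genes. In the 6671 genes with narrower peaks only, these shares were 24.5% and 9.8%. Genes with no read in any library count as neither. They were 246 of the domain genes (21.9%), 29.1% of genes with narrower peaks only and 39.6% of all placed genes. The sets thus differ in the share of genes that could stand above or below. Summed over all domain genes, RNA stood at 4402 and 4407 CPM without auxin and at 4422 and 4517 CPM with it. Without Esrrb, the most abundant, the sums were 3289 and 3350 CPM without auxin and 3579 and 3720 CPM with it.

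Domain genes were also set beside genes of the same control level. At low levels a gene of any set can pass the read filter through its auxin reads alone. The shares of rises and falls there are thus selected towards rises. All 887 genes tested at under 0.3 per kb had a median log2 fold change of 0.54. Among genes at under 0.3 per kb, 29 of 149 domain genes rose (19.5%), against 18.3% of all 887 genes tested at that level and 14.4% of the 243 with no CUT&RUN peak. At 0.3 to 1 per kb it was 33 of 153 (21.6%), against 15.1% of all 1654 and 11.6% of 761 with no peak. At 1 to 3 per kb it was 11 of 71 (15.5%), against 17.7% of 2194 and 15.3% of 1475, and at 3 to 10 per kb 6 of 31 (19.4%), against 15.1% of 3434 and 13.9% of 2976. Genes with narrower peaks only rose in 19.8%, 17.5%, 23.5% and 23.8% at these levels. For falls the shares in domain genes and in all genes tested were 0.671% against 1.8%, 2.61% against 2.84%, 9.86% against 4.19% and 9.68% against 6.52% at these levels. At 10 or more per kb, where 29.6% of all 5353 genes fell, 2 of 12 domain genes fell and none rose. Over all levels, genes with narrower peaks only rose in 20.1% of 2443 tested and fell in 6.14%. These are counts side by side, and no difference between the sets was tested.

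**Figure D4:**
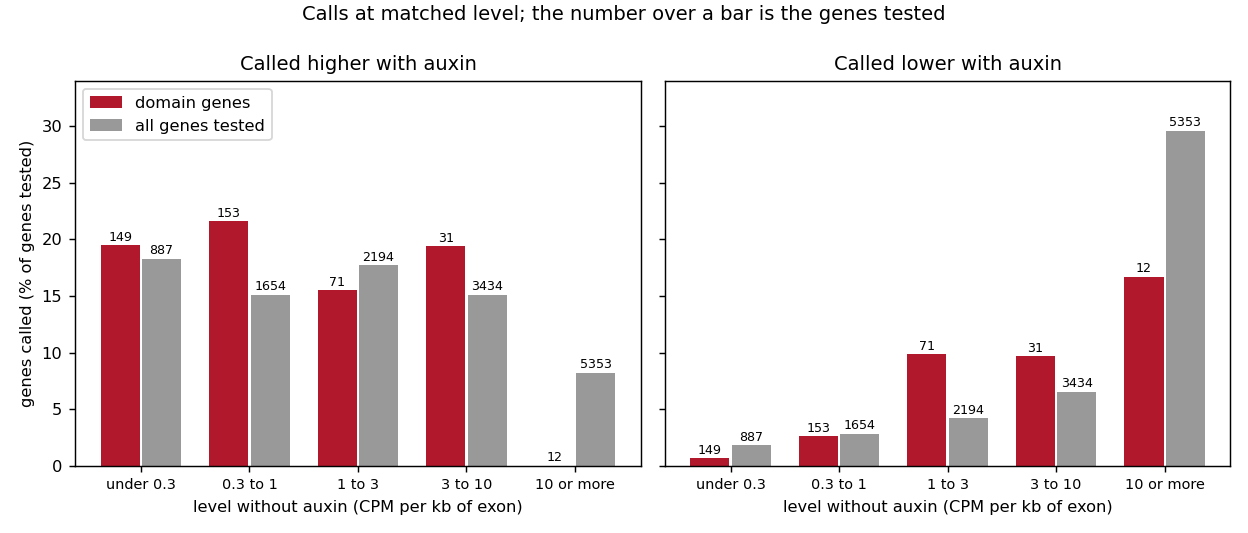
The percent of tested genes called higher (left) or lower (right) with auxin, by level without auxin (CPM per kb of exon), for domain genes (red) and all genes tested (grey), with the number tested over each bar. Below 10 per kb the red and grey bars for rises stand between 15.1% and 21.6%, and the grey bar for falls reaches 29.6% at 10 or more.

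The rises were spread over all width classes and positions. They were 46 of 257 tested genes (17.9%) with a widest domain of 5 to 7.5 kb, 23 of 105 (21.9%) at 7.5 to 10 kb and 10 of 54 (18.5%) at 10 kb or more. With the domain at the 5′ end 20 of 101 rose and 2 fell, and with it in the body only 59 of 315 rose and 15 fell. Genes whose domains held no ChIP-seq peak had a median log2 fold change of 0.08, with 9 rises and 6 falls among 53 tested. The median was 0.27 where ChIP-seq peaks covered up to 25% of a domain and 0.29 above that, with 32 and 38 rises and 6 and 5 falls among 159 and 204 tested.

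The 12 largest rises included the T-box factors Tbx5 and Tbx2 and the helix-loop-helix factor Hand1. Tbx5, a T-box factor of heart and forelimb with a domain over its 5′ end (chr5:119828518-119837048, 43.3% under ChIP-seq peaks), went from 0.0702 and 0.678 CPM to 1.55 and 1.6 CPM. Its log2 fold change was 2.03 ± 0.55 (SE, adjusted p = 0.0185), and it was 1.21 without the first control library and 4.33 without the second. Tbx2, a T-box repressor, went from 0.562 and 0.407 to 1.25 and 1.90 CPM (1.71 ± 0.42, adjusted p = 0.0109). In both the auxin libraries lay above the controls, as the rule for naming the largest rises required. DESeq2 gave no result for Tbx5 or Tbx2. The control reads of Tbx5, Tbx2 and Hand1 alone would not have passed edgeR's read filter. These genes were tested because of their auxin reads. Counts were low, at most 10 in a control library, and the call was lost for Tbx5 without the first control library and for Tbx2 without the second control or the second auxin library. Hand1, a basic helix-loop-helix factor of heart and trophoblast inside a domain of 7594 bp, went from 0.281 and 0.814 to 1.18 and 2.49 CPM (1.76 ± 0.51, adjusted p = 0.0238). Its call was lost without the first control library or the second auxin library, and its value ran from 1.09 without the second auxin library to 2.71 without the second control library. Tbx4, a hindlimb factor, rose by 1.17 on the log2 scale. Of the 4 tested Sox, Gata and T-box factors with a domain, 3 rose, and Sox6 stood at -0.35. Among all 26 tested members of that list, with or without a domain, 9 rose and 7 fell, beside 13.0% and 14.5% of all genes tested.

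Among the other homeobox factors with a domain, 3 of 14 tested rose and 1 fell, and in the whole list 17 of 73 rose and 5 fell. Tlx1, a factor of spleen development inside a domain of 9209 bp, went from 0.913 and 1.08 to 2.36 and 3.15 CPM (1.47 ± 0.32, adjusted p = 0.00559). Its call held in each of the 10 other fits. Isl1, a factor of heart progenitors and motor neurons, rose by 1.08 on the log2 scale. Evx1, a factor of the primitive streak with a domain over its 3′ end, fell from 7.38 and 5.70 CPM to 3.10 and 2.85 CPM (-1.14 ± 0.21, adjusted p = 0.00264). Hoxb4 was the only tested member of the 8 Hox genes with a domain. It went from 0.773 and 0.746 to 1.18 and 2.32 CPM (1.23 ± 0.41, adjusted p = 0.0444), with the rise carried mostly by 1 auxin library, and the call was lost in 4 of the 10 other fits. Of all 23 tested Hox genes 10 rose and none fell. Hoxb3 had no read without auxin and 3 and 1 counts with it.

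Sez6l, a neuronal membrane protein gene with the largest fitted rise, had 1 and 2 counts without auxin and 9 and 13 with it, a ratio of 6.99 after scaling (95% exact counting interval 2.1 to 36.5). Its call was lost without either control library. It passed edgeR's read filter through its auxin libraries alone. A gene with these control counts that did not rise would not have been tested. Mbp, which encodes myelin basic protein, rose from 1.69 and 2.85 to 7.52 and 10.0 CPM (1.96 ± 0.25, adjusted p = 0.000278). Ap3b2, the neuronal subunit of the AP-3 adaptor, rose from 6.32 and 7.73 to 27.3 and 24.8 CPM (1.88 ± 0.13, adjusted p = 4.29e-06). Ap3b2 had the lowest adjusted p of the 12 largest rises, and its domain of 6425 bp lies 24429 bp from the 5′ end. The calls of Mbp and Ap3b2 held in each of the 10 other fits.

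Kif17, a kinesin of dendrites, rose from 0.351 and 0.0678 to 1.03 and 0.891 CPM, and Syt13, a synaptotagmin, from 0.773 and 0.678 to 1.92 and 2.85 CPM. Sstr5, a somatostatin receptor with a domain over its 5′ end, rose from 0.562 and 0.339 to 1.55 and 1.54 CPM. Psd2, an exchange factor for Arf6, rose from 0.211 and 0.271 to 0.664 and 1.01 CPM. In each of these 4 the auxin libraries lay above the controls, as the rule for naming them required. Their log2 fold changes ran from 1.73 to 2.16, and edgeR's adjusted p from 0.00457 to 0.029. DESeq2 gave no result for Kif17, Sstr5 or Psd2. Kif17 and Sstr5 lost the call without the second control library, Psd2 without either control library and Syt13 without the second auxin library. The Kif17 value was 3.66 without the first control library and 1.42 without the second. Mfi2, which encodes melanotransferrin, rose by 2.29 ± 0.52 and lost its call without the second auxin library. Osgin1, an oxidative stress response gene, rose by 2.26 ± 0.64 and lost it without the first control or the first auxin library. Its value was 1.63 without the first control library and 3.46 without the second. For Kif17, Sstr5, Psd2, Mfi2 and Osgin1, control reads alone would not have passed edgeR's read filter. These genes were tested because of their auxin reads.

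**Figure D5:**
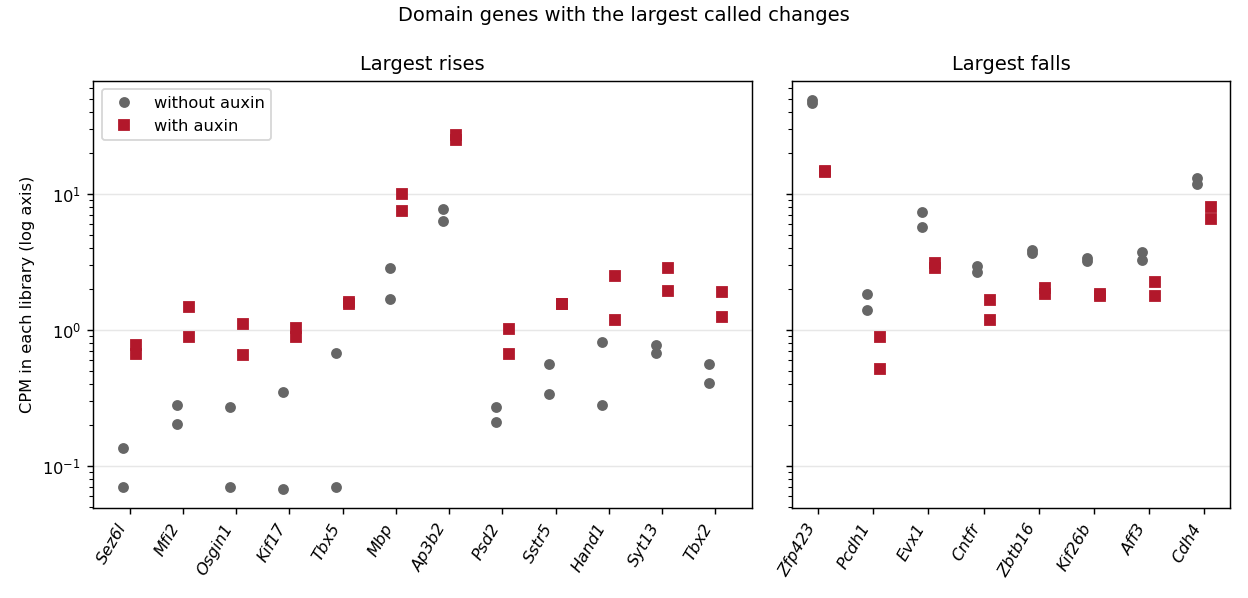
CPM in each library (log axis) for the 12 domain genes with the largest called rises and the 8 with the largest called falls; grey circles, 2 libraries without auxin; red squares, 2 with auxin. Among the rises Mbp and Ap3b2 stand above 1 CPM without auxin, and among the falls Zfp423 goes from 48.7 and 46.9 to 14.7 and 14.6 CPM.

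The other lists gave few calls among their domain genes, beside 19.0% higher and 4.09% lower over all tested domain genes. Of the Wnt genes with a domain, Wnt3, a ligand of gastrulation, rose from 1.05 and 2.58 to 3.39 and 4.4 CPM (1.10 ± 0.34, adjusted p = 0.0319). That call was lost with DESeq2, without the first control library and without the second auxin library. Wnt11, Lgr6 and Wnt7b did not pass, at 0.65, 0.61 and 0.15 on the log2 scale. Voltage-gated channels with a domain gave 1 rise among 15 tested, Cacna1g, a T-type calcium channel gene (1.70 ± 0.31, adjusted p = 0.0021), which held in the 10 other fits. Of 4 tested neurotransmitter receptors, Grm4 and Chrna4 rose by 1.48 and 1.05 on the log2 scale, Chrna4 losing its call without the second auxin library. None of the 9 tested collagens was called in either direction, with values from -0.21 (Col4a1) to 0.56 (Col26a1). Axon guidance genes split, with Slit1 higher (1.6) and Slit3 and Sema5b lower (-0.73 and -0.44) among 9 tested. Of 5 tested cadherins with a domain, 2 fell and none rose. With or without a domain, 4 of 24 tested cadherins rose and 3 fell, 10 of 41 Wnt genes rose and 5 fell, and 6 of 49 voltage-gated channels rose and 4 fell. For collagens it was 3 and 1 of 21, for axon guidance genes 16 and 8 of 57, and for neurotransmitter receptors 4 and 3 of 36. Fgfr2 rose by 1.43, but its domains lie in a table span of 2960 kb and none touches its RefSeq span of 104 kb.

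The falls were fewer than the rises and were led by a gene with many reads. Zfp423, a zinc finger factor of neural and fat cell precursors, had 4 domains, none nearer than 7609 bp to its 5′ end, and 3 of the 4 held no ChIP-seq peak. It fell to 14.7 and 14.6 CPM, with a log2 fold change of -1.71 ± 0.09 (adjusted p = 5.35e-07). Cdh4, the retinal cadherin gene, fell from 11.9 and 13.2 to 6.56 and 8.08 CPM (-0.77 ± 0.15, adjusted p = 0.00371). Pcdh1, a protocadherin, went from 1.40 and 1.83 to 0.516 and 0.891 CPM (-1.16 ± 0.38, adjusted p = 0.0434), and its call was lost when any 1 of the 4 libraries was left out.

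Cntfr, the receptor subunit for ciliary neurotrophic factor, Zbtb16, a zinc finger repressor, Kif26b and Aff3 had log2 fold changes of -0.97, -0.95, -0.85 and -0.78, and each of these calls was lost with DESeq2. Those of Cntfr, Kif26b and Aff3 were also lost without either control library or without the first auxin library. Kif26b and Aff3 lost theirs without the second auxin library as well. Esrrb fell from 1110 and 1060 to 843 and 796 CPM (-0.40 ± 0.05, adjusted p = 0.000259), and this held in the 10 other fits. Of the 79 rises and 17 falls, 25 rises and 7 falls were called in each of the 10 other fits that could test the gene. On the log2 scale 46 rises and 3 falls passed 1.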

How the data were processed

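Peaks and RNA were taken from the deposited files. Per the file headers, featureCounts 1.6.3 counted fragments over exons on the reverse strand, and the authors deposited raw counts per gene. STAR 2.6.1d, Bowtie2 2.4.1, MACS2 2.1.1 and the builds dm6 and mm10 stand in the submitters' processing notes. A deposited peak list comes from 1 unpooled sample and gives the authors' score, fold enrichment, −log10 p and −log10 q. The peak calls' control library and cutoff were not given in the sources used here, and the read depth of these libraries is unknown.

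The members, the 26 gene lists and the tests were chosen with earlier results of these data known. Overlaps needed at least 1 bp, and 226 of 33006 gene names with no single place were left out of them. The test on counts used edgeR 4.0.16 under R 4.3.3 (TMM, default filter, quasi-likelihood test, two-sided, Benjamini-Hochberg, threshold 0.05, no block) over 13522 genes, after the code was tested on simulated data. Fold changes are fitted log2 values, and their SE was taken as log2 fold change divided by the root of F. Levels per kb divide CPM by the table's exon length. No library was a copy of another: chi-square per degree of freedom between replicates was 3.86 without auxin and 11.1 with it. Counting used strand, but near-identical gene copies were not resolved. Named genes were those over the 10 widest domains, the 12 largest rises and 8 largest falls with groups apart, the 8 highest control levels, the 5 highest and 5 lowest ChIP-seq cover among the 50 widest domains, and up to 4 per list. Further genes were named to account for calls within a list or for several domains on a gene, after their values were seen. One called gene of a list is not reported here by name. Separation of the libraries of the 2 groups was required for the largest rises and falls. Its share among all called genes is not given here. Intervals cover counting error only.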

Additional observations from a re-analysis of the deposited data

How the results depend on the processing

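Against 79 rises and 17 falls, DESeq2 1.42.0 called 28 and 8, and a fit with the replicate block 126 and 31 (over all genes 881 higher and 1448 lower with DESeq2, 2972 and 3177 with the block). The replicate numbers were not taken as pairs, since same-numbered libraries' deviations correlated at 0.227 over only 2 pairs. Leaving out 1 library gave 46 to 83 rises and 10 to 20 falls: 46 rises without the second auxin library, and 48 rises and 10 falls without the first control library. Other normalizations, read filters, joining of peaks at most 1000 bp apart and RefSeq gene spans (added after seeing the data) kept both counts within 1.5 times. In all of these, and in the settings below, rises outnumbered falls. A width of at least 7500 bp left 511 domains over 413 genes with 33 rises and 8 falls. A width of at least 4000 bp gave 3148 domains over 1719 genes with 28 falls. Domains with −log10 q of at least 2 numbered 940 over 743 genes with 11 falls. Linking by the 5′ end, 1 kb on either side, gave 493 genes with 22 rises and 3 falls, a median control level of 0.0121 per kb and a median log2 fold change of 0.27. The share of domains with a ChIP-seq peak was 72.3% where peaks had to cover at least 0.1 of the domain, 61.2% with ChIP-seq −log10 q of at least 2, and 95.3% at a width of at least 7500 bp. The covered length was then 14.4% with the stricter q, 30.3% at the larger width and 23.5% with joined peaks. The median control level was 0.0378 to 0.0484 without 1 control library. The median log2 fold change of 0.26 became 0.25 with RLE factors, 0.29 with upper-quartile factors, 0.33 with the filter of 1 read in any library, and 0.20 to 0.37 without 1 library. It was 0.26 with the replicate block. The causes were not tested, apart from fewer libraries, genes or domains where a setting removes them. For the 20 largest rises and falls, 144 refits kept the call, 34 lost it and none reversed. Only refits that gave a result for the gene are counted there. DESeq2 and the filter of at least 10 reads in each library gave none for Sez6l, Mfi2, Osgin1, Kif17 and Tbx5. The same holds for Psd2, Sstr5, Hand1, Tbx2 and Pcdh1, so neither setting could keep or lose these calls. At this depth 706 of 1122 domain genes had too few reads to test, 246 of them with no read in any library.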

Other observations

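The 3 domains with the highest −log10 q lay in Sfi1, a centrosomal gene on chromosome 11. The authors' peak caller gave them 17.3, 9.66 and 8.43, with fold enrichments of 2.48, 2.21 and 1.95, low among domains, where the median fold was 3.37. The next highest −log10 q, 6.77, belonged to a domain outside genes on chromosome 1, followed by 5.36 in the domain of Emx1, a homeobox factor of the forebrain, which also had the highest fold, 4.74. ChIP-seq peaks covered 51.8%, 52.3% and 37.2% of the Sfi1 domains and 28.7% of the Emx1 domain.

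Further genes lay under domains without a readable transcript. Slc6a11, the GABA transporter gene with 6 domains, had no read in any library, and neither had Gata5, Foxe3, Foxs1 and Gp1bb. The Notch ligand genes Jag2 and Dll1 had reads under their domains: Jag2 stood at 20.9 and 23.3 CPM and Dll1, inside a domain of 13184 bp, at 0.983 and 2.1 CPM without auxin. Neither was called with auxin, with log2 fold changes of -0.16 and 0.02. Nes, an intermediate filament gene of neural progenitors with a domain over its 3′ end, rose from 23.2 and 18.1 to 32.8 and 32.2 CPM (edgeR, 0.66 ± 0.11, adjusted p = 0.0018), while the neural progenitor marker Sox1, without a domain, stood at 13.0 and 16.4 CPM without auxin and at 7.52 and 9.68 CPM with it.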
